A study of Mus musculus with 8 samples.

Results

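The V1 sector of the vacuolar ATPase (V-ATPase), the proton pump of lysosomes and endosomes, was followed in mouse muscle precursor cells through 8 genes, Atp6v1a, Atp6v1b2, Atp6v1c1, Atp6v1d, Atp6v1e1, Atp6v1f, Atp6v1g1 and Atp6v1h. These are the broadly expressed forms of the A to H subunits, taken by symbol as 8 of the 42391 gene entries of the raw count table. The family was chosen by its measured log2 fold changes after Septin9 siRNA, because Atp6v1a fell in both cell types, so that the siRNA contrast of the members is described here by values and counts, without p-values. PolyA RNA was sequenced in 4 groups of 2 replicates, 8 samples in all. C2C12 cells, an established mouse myoblast line, received 50 nM of siRNA, non-targeting for the control or directed at Septin9, and were collected 60 h after transfection, the last 12 h in differentiation medium. Primary myoblasts came from hindlimbs of mice aged 5 weeks and were separated from fibroblasts by plating on collagen. They received the same siRNAs, at a dose the labels do not give for them, and were collected in proliferation medium 48 h after transfection. Control cells are labelled wild type. Septin9 was lowered with 1 siRNA sequence, without a second one for comparison, and how many mice gave the primary cells is not stated. The replicates come from 2 independent experiments, and the p-values below measure the spread between these samples only. The libraries held 20898611 to 27223414 counts each. A second entry of the table repeated the counts of Atp6v1c1 exactly, and one of Atp6v1e1 differed from it by at most 6 counts, and only the entries with the plain symbols were used. All 8 members passed the filter on low counts in both cell types.

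The V-ATPase consists of the cytosolic V1 sector, which hydrolyses ATP, and the membrane-embedded V0 sector, which carries protons. In V1, A and B subunits alternate in a ring that turns a central shaft of D and F, while peripheral stalks of E and G, joined through C and H, hold the ring in place. Acidification by the pump activates lysosomal hydrolases, and the pump also takes part in amino acid sensing through the Ragulator complex on the lysosome.

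The siRNA target and its partial matches are shown first, because the sequence after the coding sequence of Atp6v1a holds 3 short matches to the siRNA and those of the other members hold none. A siRNA guide strand can bind messenger RNAs other than its target through its seed, bases 2 to 8 counted from the 5′ end. The heptamer GACGTGT pairs with bases 2 to 8 of this guide and the hexamer ACGTGT, contained in it, with bases 2 to 7. Both were searched on the transcript strand in GENCODE M21 transcripts, in the longest stretch that any transcript of a gene has behind its stop codon. The hexamer search was added after the values of the members had been seen. Each line gives 19 bases of GRCm38 sequence, 5′ to 3′, with the bases that pair with the seed in capitals. The Septin9 site lies in its coding sequence at chr11:117356354-117356372, plus strand. The Atp6v1a sites lie on the minus strand at chr16:44087381-44087399, chr16:44086461-44086479 and chr16:44086454-44086472. The last 2 of these 19-base stretches overlap, but their hexamers do not. The Atp6ap1 and Atp6ap2 sites lie on the plus strand at chrX:74304666-74304684 and chrX:12616374-12616392, each after the coding sequence.
Septin9 target: ccaacggcattGACGTGTa
Atp6v1a site at base 37 after the coding sequence: cggcaagctcatACGTGTa
Atp6v1a site at base 957: ttcacaaggtacACGTGTc
Atp6v1a site at base 964: ggtacacgtgtcACGTGTt
Atp6ap1 site: aataaaataaaGACGTGTt
Atp6ap2 site: gcttagttctgGACGTGTa
The heptamer was found in none of the 8 members, neither after the coding sequence nor in it, against 528 of 20937 genes (2.52%). The hexamer was found in 1 of 8 members, Atp6v1a, against 2603 of the 20937 genes (12.4%), and 84 genes (0.401%) held 3 or more copies as Atp6v1a did. The first Atp6v1a site begins at base 37 after the stop codon and is followed by an A, as is the Septin9 target, a form held by 619 genes (2.96%). Outside the paired bases the sites share little with the target, and 10, 9 and 9 of 19 bases of the Atp6v1a sites were identical to it. These matches are descriptions of the letters, and whether the siRNA bound them was not tested.

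Promoter windows, from 250 bases before to 50 after the start, are shown for the 3 members that were called changed after Septin9 siRNA. They come from RefSeq on GRCm38.p6, which gave windows for 4 members, these 3 and Atp6v1d. Capitals mark CACGTG, the E-box at the core of the element bound by TFEB and TFE3, the transcription factors of lysosomal genes. The motif reads the same on both strands and overlaps the hexamer above in the letters ACGTG.
Atp6v1a, chr16:44139210-44139509, minus strand: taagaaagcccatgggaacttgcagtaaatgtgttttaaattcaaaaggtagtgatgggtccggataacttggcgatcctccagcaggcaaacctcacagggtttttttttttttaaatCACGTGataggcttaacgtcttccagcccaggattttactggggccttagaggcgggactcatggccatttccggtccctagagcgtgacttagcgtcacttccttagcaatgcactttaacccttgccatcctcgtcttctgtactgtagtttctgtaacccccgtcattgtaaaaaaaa
Atp6v1e1, chr6:120822649-120822948, minus strand: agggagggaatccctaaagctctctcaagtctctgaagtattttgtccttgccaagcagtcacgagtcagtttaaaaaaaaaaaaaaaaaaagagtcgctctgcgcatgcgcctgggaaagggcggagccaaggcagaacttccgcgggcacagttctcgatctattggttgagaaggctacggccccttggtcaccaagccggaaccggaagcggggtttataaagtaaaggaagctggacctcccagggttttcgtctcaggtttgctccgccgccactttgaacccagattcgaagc
Atp6v1f, chr6:29467533-29467832, plus strand: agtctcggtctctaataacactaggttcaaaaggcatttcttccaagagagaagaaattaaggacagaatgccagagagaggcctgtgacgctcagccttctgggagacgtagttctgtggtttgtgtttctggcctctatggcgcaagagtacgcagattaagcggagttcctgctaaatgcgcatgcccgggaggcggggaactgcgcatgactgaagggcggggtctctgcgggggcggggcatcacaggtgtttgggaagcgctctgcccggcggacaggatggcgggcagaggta
The motif was present once in the Atp6v1a window, beginning 131 bases before the start, and not in the other 3 windows, while 2349 of 32851 windows (7.15%) held it. The Atp6v1a window lies inside the span of the gene in GENCODE M21, chr16:44085402-44139705, minus strand, whose coding transcript has 15 exons.

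The targeted gene was examined first. Levels are given in CPM, counts relative to the library total scaled by TMM within each cell type, so that CPM values of a gene are compared within a cell type. Septin9, a cytoskeletal GTP-binding protein, was at 430 and 441 CPM in control C2C12 cells and at 151 and 189 CPM after Septin9 siRNA. In primary myoblasts it was at 365 and 459 CPM in control cells and at 199 and 157 CPM after Septin9 siRNA. The groups did not overlap in either cell type, and the means after siRNA were 39.1% and 43.2% of control.

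Atp6v1a, the catalytic subunit that binds and hydrolyses ATP, was lower after Septin9 siRNA in all 4 replicate pairs. In C2C12 cells its level was 146 CPM in replicate 1 and 226 CPM in replicate 2 of the control, and 89.5 and 154 CPM in the matching Septin9 siRNA samples. The 2 groups overlapped in C2C12 cells, because the siRNA sample of replicate 2 was above the control of replicate 1, but within each replicate the siRNA sample was lower. In primary myoblasts Atp6v1a was at 149 and 124 CPM in control cells and at 92.4 and 67.2 CPM after Septin9 siRNA, and the groups did not overlap. The mean fell from 186 ± 57 to 122 ± 45 CPM (SD, n = 2) in C2C12 cells, to 65.3% of control. In primary myoblasts it fell from 137 ± 17 to 79.8 ± 17.8 CPM (SD, n = 2), to 58.3% of control. On the log2 scale the fitted change was -0.63 (standard error 0.07) in C2C12 cells, with -0.71 and -0.56 in the 2 pairs, and -0.79 (standard error 0.11) in primary myoblasts, with -0.69 and -0.89 in the pairs. Ranked from the lowest log2 fold change, Atp6v1a stood at 261 of the 15814 genes tested in C2C12 cells and at 152 of 17117 in primary myoblasts. A second ranking took only genes with a mean of at least 50 CPM over all 8 samples, scaled together. There Atp6v1a stood at 18 of the 4737 genes tested in C2C12 cells and at 7 of 4747 in primary myoblasts. These ranks are descriptions and lend no support, since the fall of Atp6v1a chose the family. Septin9 siRNA also raised transcripts of differentiating muscle. Of these, 9 of 12 rose in C2C12 cells and 11 of 12 in primary myoblasts, beside 2.64% and 3.95% of all genes tested. Acta1 was at -0.40 and -0.06 on the log2 scale and was not called in either. The part of these shifts in the Atp6v1a values was not tested. In bulk samples such as these, fewer cells of a type and less RNA per cell cannot be told apart.

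**Figure D1:**
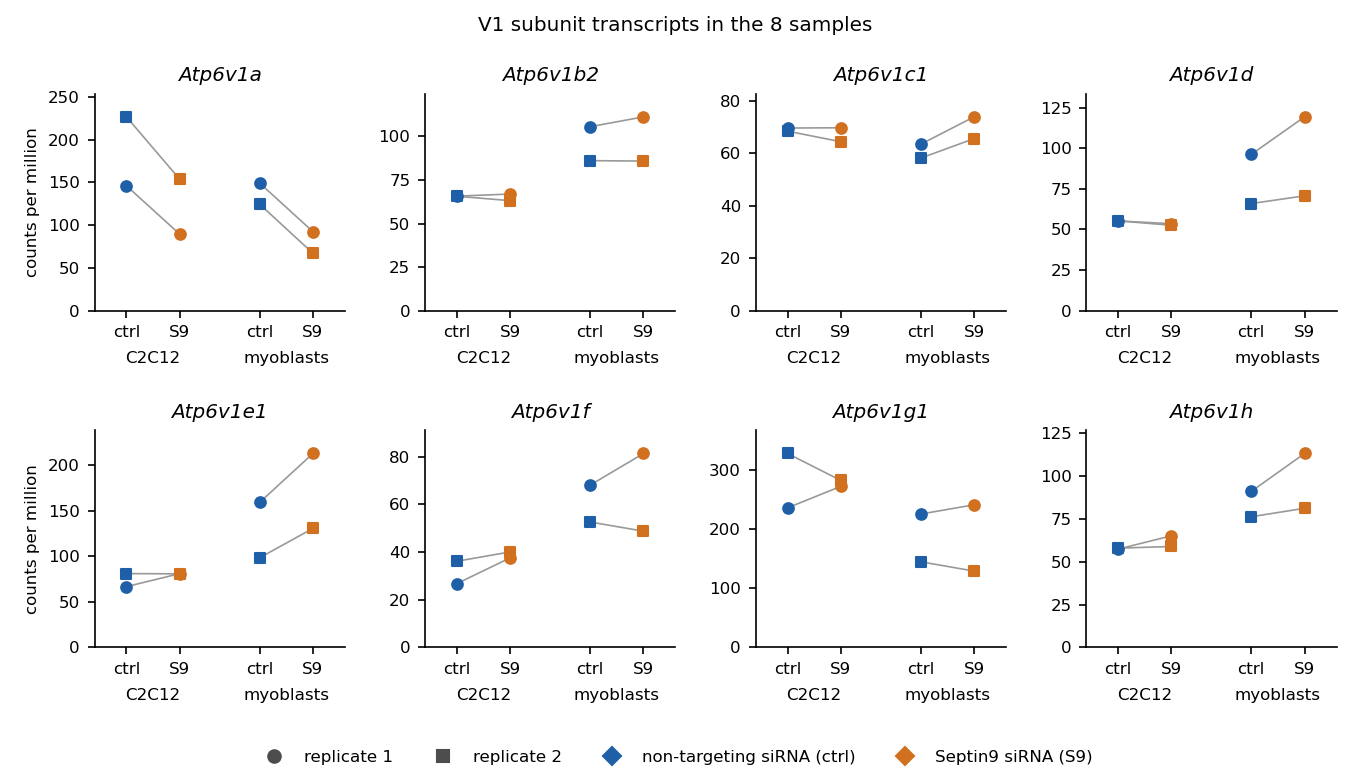
Level of each V1 subunit in CPM (vertical axis, starting at 0) in the 8 samples, with circles for replicate 1, squares for replicate 2 and lines joining the control (ctrl, blue) and Septin9 siRNA (S9, orange) samples of a replicate. Atp6v1a falls along all 4 lines, from 146 to 89.5 and from 226 to 154 CPM in C2C12 cells and from 149 to 92.4 and from 124 to 67.2 CPM in primary myoblasts.

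The other ring subunit stayed near its control values. Atp6v1b2, the noncatalytic partner of the A subunit, was at 65.7 and 65.7 CPM in control C2C12 cells and at 67.0 and 63.1 CPM after siRNA, and at 106 and 86.1 CPM in control primary myoblasts and 111 and 85.8 CPM after siRNA. Its log2 fold changes were -0.02 (standard error 0.07) and 0.04 (standard error 0.11). Atp6v1a therefore made up a smaller share of the counts of the 8 members after siRNA in each pair. In C2C12 cells the share was 20.2% (95% Wilson interval 19.6 to 20.8) in control replicate 1 and 24.7% (24.1 to 25.2) in control replicate 2. After siRNA it was 12.2% (11.7 to 12.7) and 19.3% (18.7 to 19.9), and the interval of siRNA replicate 2 overlapped that of control replicate 1. In primary myoblasts the share was 15.6% (15.1 to 16.0) and 17.6% (17.1 to 18.2) in control cells and 8.84% (8.49 to 9.21) and 9.90% (9.42 to 10.4) after siRNA. These intervals cover counting error only, and the shares are descriptions, since the fall of Atp6v1a chose the family. The other 7 members summed to 577 and 692 CPM in control C2C12 cells against 646 and 642 CPM after siRNA, and to 809 and 582 CPM against 952 and 612 CPM in primary myoblasts.

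The subunits of the central shaft were mixed. Atp6v1f, which joins D in the rotor, was at 26.8 and 36.2 CPM in control C2C12 cells and at 37.6 and 40.1 CPM after siRNA. It was higher in both pairs, without overlap, by 0.31 on the log2 scale (standard error 0.09). In primary myoblasts it was at 68.1 and 52.6 CPM in control cells and 81.3 and 48.8 CPM after siRNA, higher in 1 pair and lower in the other, and the fitted log2 value was 0.08 (standard error 0.12). Atp6v1d, the shaft itself, was at 55.2 and 55.3 CPM in control C2C12 cells and 53.5 and 52.6 CPM after siRNA, a log2 fold change of -0.06 (standard error 0.07). In primary myoblasts its values were 96.2 and 65.9 CPM in control cells and 119 and 70.7 CPM after siRNA, a log2 fold change of 0.21 (standard error 0.11) in which the gap between replicates exceeded that between groups. In C2C12 cells the groups of Atp6v1d, lower, and of Atp6v1h, higher, did not overlap either. How many of all genes lacked overlap was not counted, and nothing is read from it for any member or listed gene.

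Among the stalk subunits, Atp6v1e1 was at 159 and 98.2 CPM in control primary myoblasts and at 212 and 130 CPM after siRNA. Both pairs moved by the same amount, 0.42 and 0.41 on the log2 scale, and the fitted value was 0.41 (standard error 0.11), although the groups overlapped because replicate 1 was above replicate 2. Atp6v1e1 shares 32 exon bases with Slc25a18 on the opposite strand, and Atp6v1h 127 with Rgs20, and whether the counting used strand is not given in the sources used here. In C2C12 cells Atp6v1e1 was at 66.6 and 80.9 CPM in control cells and 80.8 and 80.6 CPM after siRNA, a difference carried by replicate 1. Atp6v1g1, its partner in the stalk and the member with the most counts, went up in replicate 1 and down in replicate 2 of both cell types. It was at 236 and 328 CPM in control C2C12 cells and 272 and 282 CPM after siRNA, and at 225 and 145 CPM in control primary myoblasts and 241 and 129 CPM after siRNA. Its log2 fold changes were -0.01 (standard error 0.08) and -0.03 (standard error 0.12).

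Atp6v1c1 and Atp6v1h connect the stalks to the membrane sector, and C leaves the complex when V1 detaches from V0. Atp6v1c1 ranged from 64.4 to 69.7 CPM over all 4 C2C12 samples. In primary myoblasts it was at 63.4 and 58.1 CPM in control cells and 73.8 and 65.6 CPM after siRNA, without overlap, and the fitted value of 0.20 on the log2 scale (standard error 0.11) did not pass the threshold. Atp6v1h, the regulatory subunit that silences free V1, was at 57.4 and 58.0 CPM in control C2C12 cells and 65.2 and 59.0 CPM after siRNA, and at 91.1 and 76.4 CPM in control primary myoblasts and 113 and 81.3 CPM after siRNA. Its log2 fold changes were 0.10 (standard error 0.07) and 0.20 (standard error 0.11), positive in all 4 pairs and not past the threshold in either cell type.

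At an adjusted p under 0.05, 1 of 8 members, Atp6v1a, was called lower in C2C12 cells, where 4.12% of the 15814 genes tested were called lower, and 1, Atp6v1f, was called higher, where 2.64% of genes were. In primary myoblasts 1 member, Atp6v1a, was called lower against 1.04% of 17117 genes and 1, Atp6v1e1, was called higher against 3.95%. Where a change of at least 1.5-fold was required besides, Atp6v1a was called lower in both, against 0.74% of the genes tested in C2C12 cells and 0.298% of those in primary myoblasts. Nothing is read from these counts, since the siRNA contrast chose the members. The median log2 fold change over the 8 members was -0.01 in C2C12 cells and 0.14 in primary myoblasts, beside -0.00 and 0.01 over all genes tested. The calls need the replicate number as a block: without it 0 members were called in either direction in either cell type, with log2 fold changes of Atp6v1a of -0.62 and -0.78. Without replicate 1 the log2 fold change of Atp6v1a in C2C12 cells was -0.57 and the call was lost (0 members called lower), in a fit where 1 pair remained and the spread came from the primary myoblasts. The Atp6v1f call was lost in 6 of 11 alternatives and the Atp6v1e1 call in 4 of 11.

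**Figure D2:**
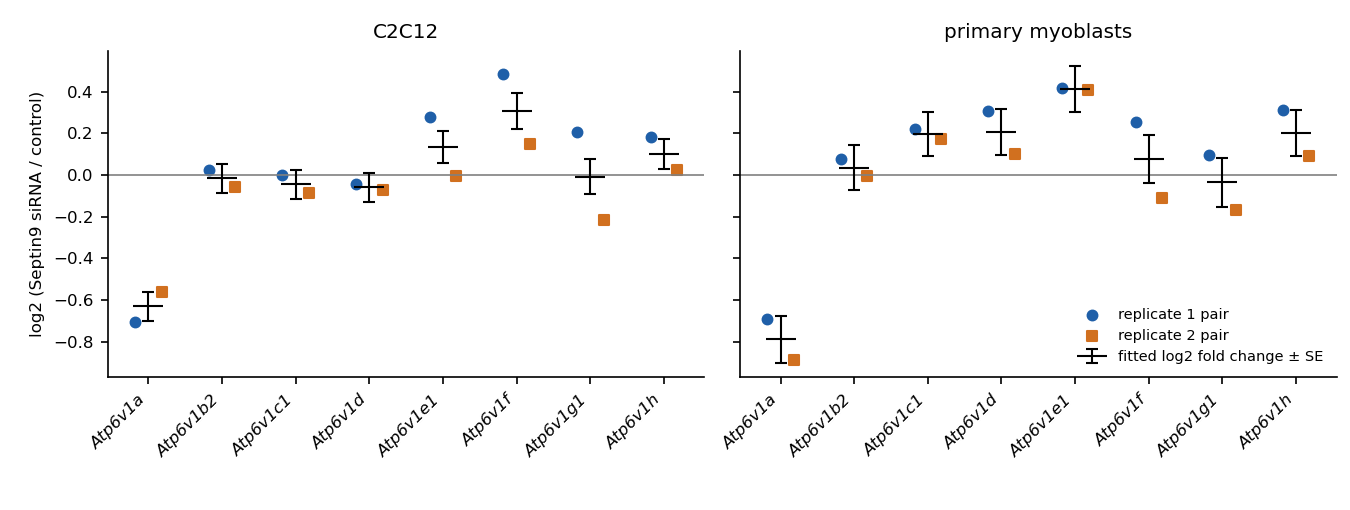
Log2 ratio of Septin9 siRNA to control for each V1 subunit in C2C12 cells (left) and primary myoblasts (right), with points for the 2 replicate pairs and bars for the fitted log2 fold change with its standard error. Atp6v1a stands alone below -0.5 in both panels, while the fitted values of the other 7 members lie between -0.06 and 0.31 in C2C12 cells and between -0.03 and 0.41 in primary myoblasts.

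The siRNA effect in primary myoblasts minus that in C2C12 cells was fitted over all 8 samples, and is given for the members as a description, since these effects chose them. The difference was -0.17 for Atp6v1a (95% interval -0.45 to 0.12), 0.27 for Atp6v1e1 (-0.03 to 0.57), 0.26 for Atp6v1d (-0.03 to 0.54), 0.23 for Atp6v1c1 (-0.03 to 0.49) and -0.24 for Atp6v1f (-0.63 to 0.14). For Atp6v1b2, Atp6v1g1 and Atp6v1h it lay between -0.04 and 0.09. Over all genes, edgeR's quasi-likelihood test called 0 of 17918 (0%) at an adjusted p under 0.05, with 1469 at an unadjusted p under 0.05, and DESeq2 called 21.

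The control cells were then compared with each other, a contrast that did not enter the choice of members. In control cells 3 of 8 members were lower in C2C12 cells than in primary myoblasts, where 18.3% of the 17103 genes tested were lower, and 0 were higher, where 16.2% of genes were. Atp6v1f differed most, at -1.03 on the log2 scale (standard error 0.24, adjusted p = 0.0303). Atp6v1b2 and Atp6v1h were lower at -0.64 (standard error 0.16, adjusted p = 0.036) and -0.63 (standard error 0.15, adjusted p = 0.0334). Atp6v1e1 and Atp6v1d, at -0.90 (adjusted p = 0.063) and -0.65 (adjusted p = 0.0751), did not pass, and neither did Atp6v1g1 at 0.51 (adjusted p = 0.231), Atp6v1a at 0.35 (adjusted p = 0.345) and Atp6v1c1 at 0.09 (adjusted p = 0.639). All adjusted p-values are from edgeR's quasi-likelihood test over all genes. The 3 calls became 0 with a replicate block. With a library left out, 1 group held a single sample, assumed to vary like the other group, and the calls became 0 without primary myoblast control replicate 1, C2C12 control replicate 1 or C2C12 control replicate 2, and became 5 without primary myoblast control replicate 2. Without C2C12 control replicate 2 the difference of Atp6v1a was -0.01.

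Cell type, medium and time after transfection differed together in this comparison and cannot be told apart. The primary myoblasts, labelled as proliferating, held far more transcripts of differentiating muscle than the C2C12 cells in differentiation medium. On the scale set over all 8 samples, the 12 markers of that list summed to 17940 and 5101 CPM in control primary myoblasts against 43.2 and 178 CPM in control C2C12 cells, and all 12 were lower in C2C12 cells. Myoblast markers were present in every sample, with 10 of 10 above 0 and sums of 1765 to 2909 CPM in C2C12 cells and 4808 to 7866 CPM in primary myoblasts. Their part in the differences of the V1 subunits was not tested.

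Levels are comparable between genes only per length, and the counts were therefore converted to FPKM, which is CPM, here scaled over all 8 samples, divided by the annotated exon length in kilobases. Atp6v1g1 was the most abundant member in both controls, at 241 ± 61 FPKM (SD, n = 2) in C2C12 cells and 168 ± 52 FPKM in primary myoblasts. By this length Atp6v1h was the least abundant, at 5.74 ± 0.18 and 8.85 ± 1.10 FPKM, and the highest was 42.1 times the lowest in C2C12 cells and 19.0 times in primary myoblasts. In C2C12 cells Atp6v1a (30.0 ± 9.8 FPKM) and Atp6v1f (28.8 ± 6.7) followed Atp6v1g1 and overlapped each other, then came Atp6v1e1 (17.4 ± 2.8). Atp6v1b2 (12.0 ± 0.3), Atp6v1c1 (11.9 ± 0.1) and Atp6v1d (11.6 ± 0.3) formed a group whose replicates overlapped. In primary myoblasts the order ran from Atp6v1f (58.5 ± 10.6 FPKM) over Atp6v1e1 (32.2 ± 10.7), Atp6v1a (23.3 ± 3.0), Atp6v1b2 (18.6 ± 2.7) and Atp6v1d (18.1 ± 4.8) to Atp6v1c1 (11.2 ± 0.7). There Atp6v1e1 overlapped Atp6v1a, and Atp6v1a and Atp6v1b2 each overlapped Atp6v1d. With the length of the longest annotated transcript instead, Atp6v1b2 rose above Atp6v1c1 and Atp6v1d in C2C12 cells (22.5 against 13.6 and 14.6 FPKM). In primary myoblasts Atp6v1c1 (12.7 FPKM) was then the lowest member and Atp6v1h stood at 17.9 FPKM. The span from highest to lowest shrank to 20.8 and 13.2 times.

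The tissue-restricted V1 forms were at low levels or at 0. Atp6v1b1 and Atp6v1g3, forms of kidney and other specialised epithelia, had 0 counts in all 8 samples. Atp6v1g2, the neuronal form of the G subunit, reached 2.23 ± 0.64 FPKM in control C2C12 cells and 1.84 ± 0.16 FPKM in control primary myoblasts (SD, n = 2). Atp6v1c2 stayed at 0.22 and 0.48 FPKM, and Atp6v1e2, with 0 counts in C2C12 cells, was at 1.52 and 0.11 FPKM in the 2 control primary myoblast samples. None of the 3 forms that could be tested in primary myoblasts passed after Septin9 siRNA (Atp6v1c2, Atp6v1e2 and Atp6v1g2), nor did Atp6v1g2, the one form tested in C2C12 cells.

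**Figure D3:**
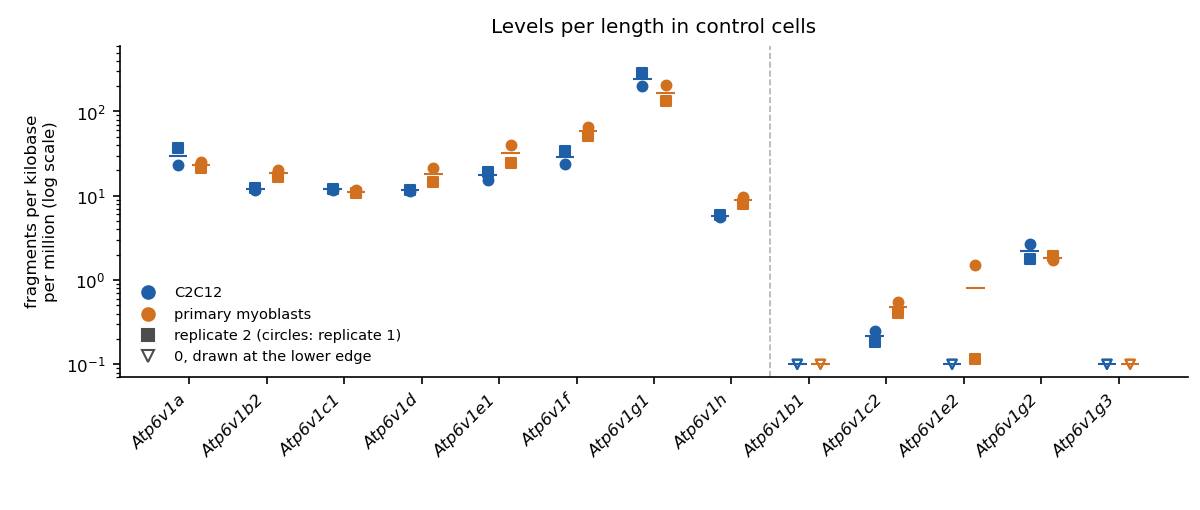
Level per length (FPKM, log scale) of the 8 V1 subunits and, right of the dashed line, the 5 tissue-restricted forms in the control samples, with circles and squares for replicates 1 and 2 and short lines for the mean. Atp6v1g1 lies highest, at 241 and 168 FPKM, Atp6v1h lowest of the members, at 5.74 and 8.85 FPKM, and open triangles mark forms at 0.

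Replicates differed for these genes as well. Replicate 2 was compared with replicate 1 across control and siRNA samples together, in edgeR's quasi-likelihood test with adjustment over all genes. In C2C12 cells 3 of 8 members were higher in replicate 2, where 17.4% of genes were. Atp6v1a was higher by 0.70 on the log2 scale (standard error 0.07, adjusted p = 1.41e-07), more than its siRNA effect, and Atp6v1g1 and Atp6v1f by 0.26 (adjusted p = 0.0174 and 0.0244). The other 5 members lay between -0.07 and 0.14 and did not pass. In primary myoblasts 7 of 8 members were lower in replicate 2, where 11.9% of genes were. Atp6v1g1 was at -0.77 (standard error 0.12, adjusted p = 7.13e-05), Atp6v1e1 at -0.70 (adjusted p = 0.000105), Atp6v1d at -0.65 (adjusted p = 0.000194) and Atp6v1f at -0.55 (adjusted p = 0.00138). Atp6v1h, Atp6v1a and Atp6v1b2 followed at -0.37 (adjusted p = 0.0194), -0.36 (adjusted p = 0.023) and -0.33 (adjusted p = 0.0293), while Atp6v1c1 at -0.15 (adjusted p = 0.359) did not pass.

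The same libraries stood apart in their markers. In primary myoblasts all 12 markers of differentiating muscle were lower in replicate 2 (median log2 difference -1.36), and the 4 fibroblast markers that could be tested were higher (median 5.37). The 7 fibroblast markers summed to 2.28 CPM in both libraries of replicate 1, and to 67.6 and 87.4 CPM in those of replicate 2. In C2C12 cells all 12 muscle markers and the 3 fibroblast markers tested were higher in replicate 2 (medians 1.63 and 1.31). All 7 fibroblast markers together summed to 11.2 to 23.6 CPM in C2C12 cells, with Thy1 at 0 in all 4 samples and Lum at 0 in both control samples. The part of these shifts in the V1 differences between replicates was not tested. Within the replicates, Atp6v1a was lower after siRNA in all 4 pairs, a description only, since this fall chose the family.

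**Figure D4:**
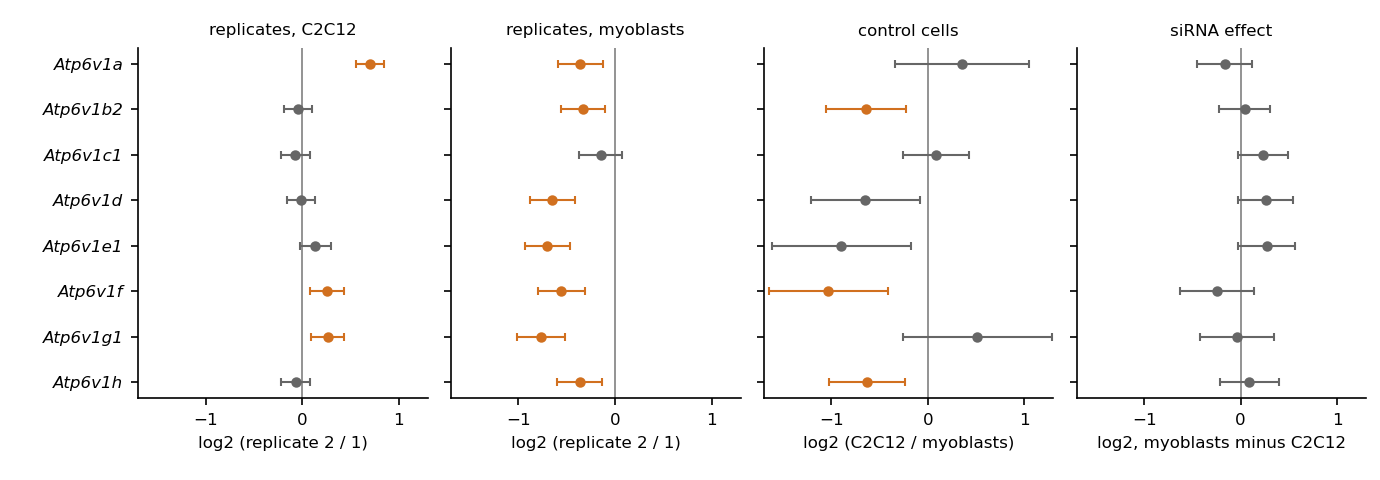
Log2 differences of the 8 V1 subunits with 95% intervals (bars) between replicates in each cell type, between control C2C12 cells and control primary myoblasts, and between the siRNA effects of the cell types, with orange for an adjusted p under 0.05 and the last panel as a description only. Replicate 2 lies above replicate 1 for Atp6v1a in C2C12 cells (0.70), and below it for 7 members in primary myoblasts.

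The membrane sector was counted next, with a list drawn up when earlier results of these data were known. Of 13 genes for V0 subunits and accessory proteins, 10 could be tested in C2C12 cells, where 1 rose and 1 fell, and 11 in primary myoblasts, where 0 rose and 1 fell. Of all genes tested, 2.64% rose and 4.12% fell in C2C12 cells, and 3.95% rose and 1.04% fell in primary myoblasts. The median log2 fold changes of the list were -0.01 and 0.06. The gene that fell was the same in both. Atp6ap1, an accessory protein that guides the assembly of the pump, was at 130 and 134 CPM in control C2C12 cells and at 93.3 and 100.1 CPM after siRNA. In primary myoblasts it was at 173 and 142 CPM in control cells and at 136 and 100.1 CPM after siRNA, and the groups did not overlap in either cell type. The fitted log2 values were -0.45 (adjusted p = 0.000268 in edgeR, standard error 0.07) in C2C12 cells and -0.43 (adjusted p = 0.0323, standard error 0.11) in primary myoblasts. Each call was lost in 4 of 11 alternatives, in C2C12 cells among them without replicate 1 and without replicate 2, with values between -0.47 and -0.43 in C2C12 cells and between -0.53 and -0.33 in primary myoblasts. As shown above, the sequence after the coding sequence of Atp6ap1 holds the heptamer, as does that of Atp6ap2, and no other V0 or accessory gene had it.

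Atp6ap2, the accessory protein also known as the prorenin receptor, was at 96.0 and 143 CPM in control C2C12 cells and 93.0 and 140 CPM after siRNA, a log2 fold change of -0.04 (adjusted p = 0.846 from edgeR). In primary myoblasts it was at 115 and 73.3 CPM in control cells and 95.4 and 53.5 CPM after siRNA, at -0.36 (adjusted p = 0.0673). The difference between the cell types did not pass (0.33 lower in primary myoblasts on the log2 scale, a value of -0.33, adjusted p = 0.503). Tcirg1, which encodes the a3 subunit of V0 known from osteoclasts, rose in C2C12 cells from 86.8 and 116 to 112 and 142 CPM (log2 fold change 0.33, adjusted p = 0.00471 from edgeR), a call lost in 5 of 11 alternatives, among them without either replicate, and was at -0.16 in primary myoblasts (adjusted p = 0.511). Macrophage and osteoclast markers summed to no more than 5.34 CPM in any sample, with Ptprc, Adgre1 and Itgam at 0 in C2C12 cells.

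The same classes of seed match were counted over all genes. Among genes with a sequence after the coding sequence, 22.6% of the 389 tested genes with the heptamer were called lower in C2C12 cells, against 3.73% of the 10362 genes without the hexamer. In primary myoblasts these shares were 10.4% of 422 genes and 0.836% of 11120 genes. For genes with the hexamer followed by A but no heptamer, the class of Atp6v1a, the shares were 7.23% of 346 genes and 1.57% of 381 genes, and their median log2 fold changes were -0.04 and -0.01. With 3 or more hexamers and no heptamer, 2 of 37 genes were called lower in C2C12 cells and 1 of 41 in primary myoblasts, Atp6v1a among them in both. The shares are descriptions, and the part of the seed matches in the values of Atp6v1a and Atp6ap1 was not tested.

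Among 11 assembly factors of the pump, 10 of which could be tested, none rose or fell in C2C12 cells. In primary myoblasts 1 rose, where 3.95% of all genes tested did. This was Rogdi, part of the complex that rejoins V1 with V0, at 17.3 and 10.0 CPM in control cells and 23.0 and 16.0 CPM after siRNA (log2 fold change 0.54, standard error 0.14, adjusted p = 0.0253 from edgeR), a call lost in 6 of 11 alternatives. Ccdc115, the one assembly factor with the heptamer after its coding sequence, was at -0.32 in C2C12 cells (adjusted p = 0.142) and -0.02 in primary myoblasts (adjusted p = 0.96).

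Other genes of the lysosome were counted next. Of all genes tested, 2.64% rose and 4.12% fell in C2C12 cells, and 3.95% rose and 1.04% fell in primary myoblasts. Of 45 genes for lysosomal enzymes and membrane proteins, 43 were tested in C2C12 cells, where 1 rose and 0 fell, and 44 in primary myoblasts, with the same counts. The gene that rose in C2C12 cells was Gaa, the enzyme that breaks down lysosomal glycogen (0.32, adjusted p = 0.021), and in primary myoblasts Lgmn, a lysosomal protease (0.41, adjusted p = 0.0359). The medians of the list were 0.07 and 0.04. Of the MiT/TFE transcription factors and their regulators, 10 were tested in each cell type and 1 fell, in C2C12 cells. This was Fnip2, a partner of folliculin, at 16.7 and 15.5 CPM in control cells and 9.85 and 10.0 CPM after siRNA (-0.69, adjusted p = 0.00108), with -0.50 in primary myoblasts (adjusted p = 0.0777), and it holds the heptamer at 2 places after its coding sequence. All of these p-values are from edgeR's test over all genes.

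In the list of the Ragulator complex, Rag GTPases and mTORC1, which senses amino acids at the lysosome together with V1, 0 of 13 genes tested passed in C2C12 cells and 1 of 14 in primary myoblasts, Rragd (0.43, adjusted p = 0.0314). Of 24 autophagy genes, 3 fell and 0 rose in C2C12 cells, Wipi1 (-0.34, adjusted p = 0.00391), Rb1cc1 (-0.27, adjusted p = 0.0211) and Ulk2 (-0.23, adjusted p = 0.0489), all of which act at the start of autophagosome formation and of which the last 2 lie outside the rule for named genes and were added after their values were seen. In primary myoblasts 2 rose and 0 fell, Bnip3, a receptor for the removal of mitochondria (0.64, adjusted p = 0.00201), and Map1lc3a, a protein of the autophagosome membrane (0.52, adjusted p = 0.0092). Of 9 other proton and counter-ion transporters of organelles, 2 rose and 1 fell in C2C12 cells and none passed in primary myoblasts. Clcn6 fell (-0.45, adjusted p = 0.0132) and Tpcn1 and Clcn5 rose (0.28 and 0.22, adjusted p = 0.0128 and 0.0447), each from edgeR's test. Shares over all genes tested were 2.64% higher and 4.12% lower in C2C12 cells, and 3.95% higher and 1.04% lower in primary myoblasts.

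**Figure D5:**
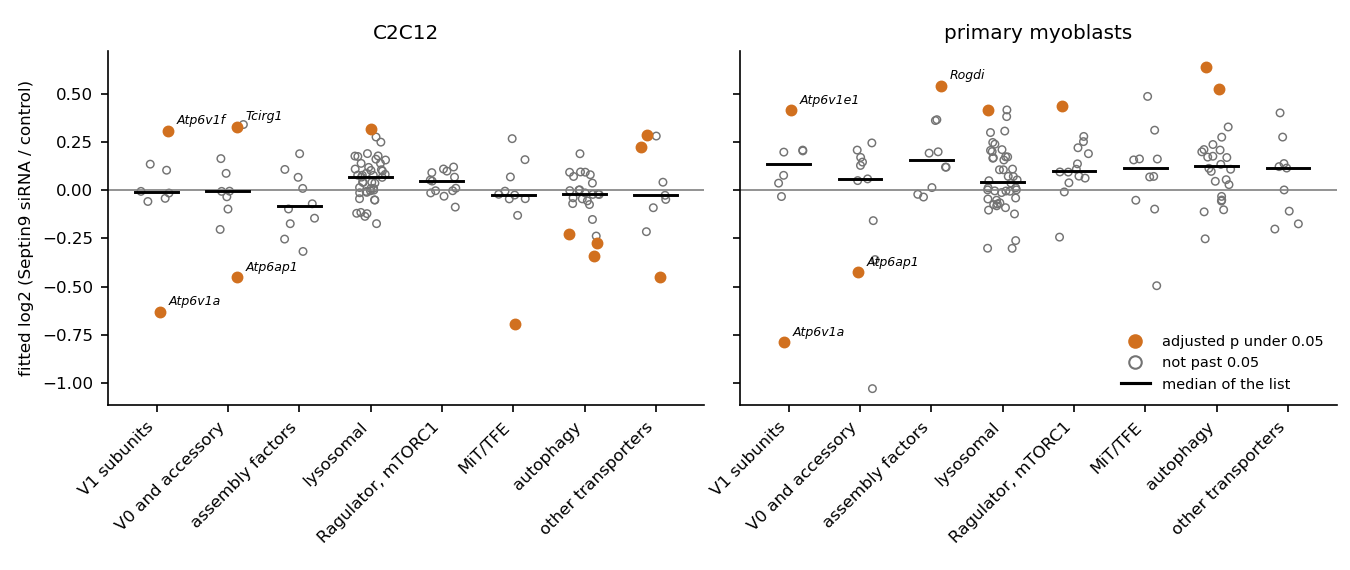
Fitted log2 fold change after Septin9 siRNA (vertical axis) for the genes of 8 lists (the members, V0 and accessory proteins, assembly factors, lysosomal, Ragulator and mTORC1, MiT/TFE, autophagy and other transporters) in C2C12 cells (left) and primary myoblasts (right), with filled points for an adjusted p under 0.05 and black bars for the median of each list. Atp6v1a (-0.63 and -0.79) and Atp6ap1 (-0.45 and -0.43) are the V-ATPase genes filled below 0, and the medians of these 8 lists lie between -0.08 and 0.16.

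The pattern of Atp6v1a over the 8 samples was compared with that of every gene with a mean of at least 10 CPM, as the root mean square difference of log2 CPM values centred within each cell type. The 7 other members lay at 0.42 to 0.56 from Atp6v1a, beside a median of 0.49 over 10078 genes, distances that include the siRNA effect by which the family was chosen. The nearest genes to Atp6v1a were Tmem167b (0.147), Wdr45 (0.186), Tmem65 (0.189), Cbr2 (0.190) and Idh1 (0.208). Of these, Cbr2 did not pass the filter on low counts in primary myoblasts, and its likeness there is not read. Tmem167b was at -0.52 after Septin9 siRNA in C2C12 cells and -0.55 in primary myoblasts. In replicate 2 against replicate 1 it was at 0.44 and -0.20. These are the signs of Atp6v1a, which follow from picking the nearest genes over these same samples. The nearest genes to the mean of the 8 members were Fars2, Ivns1abp, Nudt16l1, Plgrkt and Gstm5, at 0.03 to 0.05 against a median of 0.24. These distances describe 8 samples that share their replicate shifts, and carry no test.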

How the data were processed

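PolyA RNA of 8 samples was sequenced by the authors as paired-end reads, which they mapped to GRCm38.p6 with STAR 2.7.2 and counted per gene with featureCounts 2.0.1, and the deposited counts are whole numbers. The authors also deposited a signal per gene and cell type, counts corrected for batch with ComBat-Seq and divided by size factors of DESeq2 1.40.1. Dividing this signal by its smallest step gave whole reads for 100% of values (tolerance 0.01 reads, widened in proportion for high counts), and these served only as an alternative.

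Of the raw table, 16 broken lines, which split 5 genes, were left out, and 42391 entries were used. Entries that repeat another gene (2379) were kept in the main fit. Samples were grouped by their labels. Genes were filtered with filterByExpr, scaled by TMM and tested with edgeR 4.0.16 (quasi-likelihood test, R 4.3.3) per cell type blocked by replicate number, and p-values were adjusted by Benjamini-Hochberg over all genes. Per the study, replicates are 2 independent experiments and batch was modelled. Deviations of same-numbered samples from their group means correlated at 0.678 for C2C12 cells and at 0.820 for primary myoblasts. The contrast of control cells had no block, and the difference of effects was fitted over all 8 samples. Pair ratios used log2 CPM with a prior count of 2. DESeq2 1.42.0, other scalings and filters, no block and single replicates left out were alternatives. Figures and tables were made with Python 3.11.15. In simulated data edgeR recovered 91% of 1.5-fold and 100% of 2-fold changes for the siRNA contrast in C2C12 cells (15814 genes) and 67% and 99% in primary myoblasts (17117 genes). For the control contrast (17103 genes) it recovered 1% and 9%, and for the difference of effects (17918 genes) 35% and 79%. In each simulation 100 genes were changed by each fold and all others were set to no change. The measured control contrast was unlike this, with 18.3% of genes called lower and 16.2% higher in C2C12 cells. Its simulated shares therefore do not give the power of that contrast in these data.

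The members and the gene lists were chosen with earlier results of these data known. Named genes were the 8 members, Septin9, genes of the V0, isoform and assembly lists with an adjusted p under 0.05, at most 3 genes of each other list with the smallest adjusted p, and the 5 genes most like Atp6v1a or the mean of the members. Genes outside this rule are given where a count or a sequence match names them. The endothelial, adipocyte and other marker lists were counted for the siRNA contrast: 0 of 5 endothelial and 1 of 4 adipocyte markers could be tested in C2C12 cells, of which 1 adipocyte marker rose, and 5 and 2 in primary myoblasts, of which none passed. Of myoblast markers 4 rose in C2C12 cells, and 1 rose and 3 fell in primary myoblasts, and of fibroblast markers 0 of 3 and 1 of 4 rose. None of the macrophage and osteoclast markers tested passed. Shares over all genes tested were 2.64% higher and 4.12% lower in C2C12 cells, and 3.95% higher and 1.04% lower in primary myoblasts.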

Additional observations from a re-analysis of the deposited data

Results flagged for a closer look

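Atp6v1d was lower after Septin9 siRNA in both C2C12 pairs (log2 ratios -0.04 and -0.07) and higher in both primary myoblast pairs (0.31 and 0.10), the opposite signs that drew attention to it. The fitted difference of the 2 effects was 0.258 on the log2 scale (standard error 0.13). Its 95% interval ran from -0.03 to 0.54, and no p-value is given, since the siRNA effects chose the members.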

How the results depend on the processing

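Atp6v1a kept its direction under all 11 alternatives in both cell types, between -0.68 and -0.57 in C2C12 cells and between -0.91 and -0.67 in primary myoblasts. These alternatives refit the libraries in which the fall of Atp6v1a chose the family, so the kept direction lends no support. With a replicate left out, 1 pair remained and was assumed to vary like the samples of the other cell type. When the replicate block was dropped, 0 members were called lower or higher in either cell type, and 0 V0 or lysosomal genes. Called higher in C2C12 cells were 0 members with DESeq2, with the deposited batch-corrected counts, with all 8 samples in one fit and without either replicate (0 to 0). Called lower were 0 to 1 with a replicate left out. In primary myoblasts RLE size factors, library size alone and DESeq2 each gave 0 members higher, 0 V0 genes and 0 lysosomal genes, and leaving out a replicate gave 1 to 3 members higher. V0 genes called in C2C12 cells numbered 1 with DESeq2, 0 with all 8 samples in one fit and 0 to 0 with a replicate left out. In primary myoblasts they numbered 2 with the deposited counts and 2 to 2 with a replicate left out. Lysosomal genes called in C2C12 cells numbered 0 with DESeq2, 2 with the deposited counts, 0 with all 8 samples in one fit and 0 to 0 with a replicate left out, and in primary myoblasts 3 without the count filter and 1 to 6 with a replicate left out. For the control cells 5 members were lower without the count filter and with DESeq2, 0 with the replicate block and 0 to 5 with a replicate left out. DESeq2 called 1 member higher in replicate 2 of C2C12 cells and 4 lower in that of primary myoblasts. With longest-transcript lengths the span of levels was 20.8 and 13.2. Values near 0 changed sign: in C2C12 cells Atp6v1b2 (0.0068 with library size alone, -0.069 to 0.051 with a replicate left out), Atp6v1c1 (-0.10 to 0.026 with a replicate left out), Atp6v1e1 (-0.017 without replicate 1, 0.30 without replicate 2) and Atp6v1g1 (0.015 with library size alone, 0.00057 without further gene copies, an alternative added after seeing the data, 0.00027 with all 8 samples, -0.23 to 0.23 with a replicate left out). In primary myoblasts these were Atp6v1b2 (-0.025 to 0.093), Atp6v1f (-0.13 to 0.27) and Atp6v1g1 (-0.19 to 0.11) with a replicate left out. So did Atp6v1a between control cells (-0.013 without C2C12 control replicate 2, 0.67 without C2C12 control replicate 1), Atp6v1d between C2C12 replicates (0.013 with library size alone), and the differences of effect of Atp6v1b2 (-0.0031 with library size alone) and Atp6v1g1 (0.026 without the block). The cause was not tested. With 2 replicates per group, the test recovered 67% of simulated 1.5-fold changes in primary myoblasts.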
